A study of Mus musculus with 12 samples.

Results

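The heterogeneous nuclear ribonucleoproteins (hnRNPs) described here are the products of Hnrnpk, Hnrnpa1, Hnrnpa2b1, Hnrnpc, Hnrnpd, Hnrnpdl, Hnrnph1, Hnrnpm, Hnrnpr and Hnrnpu. A splicing cluster, a set of introns joined through shared splice sites, was counted as theirs when its gene annotation held one of these 10 symbols. They had 36 clusters in the table, of which 35 were tested, with 117 introns, out of 7263 tested clusters with 20437 introns in the whole series. The remaining cluster, of Hnrnpu, had too few samples above the minimum coverage. The 12 samples were 4sU-seq libraries of newly made RNA from mouse embryonic stem cells, labelled for 30 min with 4-thiouridine (4sU). This uridine analogue is built into transcripts as they are made. In the dTAG group, 6 samples had 3 h of dTAG-13, a small molecule that sends FKBP12(F36V)-tagged protein to degradation, before labelling. In the Ctrl group, 6 samples had no dTAG-13. Both groups were made of 3 replicates of each of the 2 clones C3 and H5, and all of these cells, untreated ones included, carry the tag at the C terminus of METTL3, the catalytic subunit of the m6A writer, and an inducible Xist. They are female cells of a 129S x Cast hybrid background, grown on inactivated fibroblast feeders.

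For each intron the tables give a PSI (percent spliced in), here a fraction fitted once per group. It says which part of the split reads in a cluster crossed that intron. No value per sample or per clone is given, so no PSI below has a replicate error and no value within a clone could be had. The deltaPSI is the PSI in dTAG cells minus the PSI in Ctrl cells. Within a cluster the PSI add up to 1, and a higher PSI at an intron can therefore come from fewer reads at its neighbours. The p-value of a cluster comes from a likelihood-ratio chi-square test across the 12 samples. No term for clone is described, so the test counts replicates of a clone as independent and does not set apart the spread between clones. Adjusted p-values are Benjamini-Hochberg values over all tested clusters. Depth per cluster is unknown, so a difference that misses the threshold is not shown to be absent. Of 10 embryonic stem cell markers 7 had a tested cluster, and of 8 feeder fibroblast markers 1 did. Having such a cluster also depends on a gene's introns and on depth, so these counts do not measure the share of feeder cells. The tables hold no expression levels, so a difference in level cannot be read from them.

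hnRNPs bind nascent transcripts and steer the choice of splice sites, and many of them act on their own transcripts. A common form of this control splices the transcript into a version whose reading frame stops early. In another form, the last exon junction lies well beyond the stop codon. Such versions are targets of nonsense-mediated decay (NMD), the pathway that removes messenger RNA with a stop codon far enough ahead of an exon junction. A poison exon brings in the stop by being included, while other exons do so by being left out, and an added intron past the normal stop codon can have the same outcome.

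Junctions were classed by the mouse GENCODE vM21 transcripts that hold them. Of the 117 introns, 53 were in protein-coding transcripts only, 34 in both protein-coding and decay transcripts, and 9 in decay transcripts but no protein-coding one (decay-only). A further 4 were in other noncoding transcripts, and 17 were unannotated. Decay-only junctions were in 6 of the 35 clusters (17.1%), beside 10.8% of all tested clusters, and belonged to 5 genes, Hnrnpk, Hnrnpa1, Hnrnpd, Hnrnpdl and Hnrnpu. The coordinates are those of the deposited tables on mm10, where an intron is given by the last base of the exon on its left and the first base of the exon on its right. With that reading, 116 of the 117 introns start with GT and end with AG, and 1 starts with GC.

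The sequences of the Hnrnpk exons, on which its larger differences turn, were read from the GRCm38 reference, in the direction of the transcript. They are shown with the 20 intron bases before them and the 6 after them, and capitals mark the exon. The exons lie at chr13:58397753-58397796 and chr13:58396188-58396259 on the minus strand.
Hnrnpk 44-nt exon: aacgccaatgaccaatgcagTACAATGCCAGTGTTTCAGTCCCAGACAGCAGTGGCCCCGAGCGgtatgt
Hnrnpk 72-nt exon: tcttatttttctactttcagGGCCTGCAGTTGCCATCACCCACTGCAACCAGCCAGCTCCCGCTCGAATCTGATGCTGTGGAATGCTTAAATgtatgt
All of these exon bases are coding in GENCODE vM21. The length of 72 nt is a multiple of 3 and that of 44 nt is not, so leaving out the 44-nt exon shifts the reading frame.

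Joining the Hnrnpk exons on either side of the 44-nt exon gives the decay form, shown here because it carries the new stop codon. The first 24 bases are those before the junction, and capitals mark the stop codon of the annotated decay transcript.
Hnrnpk joined form: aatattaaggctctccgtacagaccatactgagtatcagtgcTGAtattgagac
The stop codon follows 18 bases past the junction. In the 3 decay transcripts that hold this junction, the last exon junction lies 55, 241 and 370 nt beyond the end of the reading frame.

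Hnrnpk encodes a KH-domain protein that binds C-rich RNA and DNA, and it had the smallest p-value of the 10 genes. The junction that leaves out the 44-nt exon (58396899-58399156) had a PSI of 0.119 in dTAG cells and 0.0272 in Ctrl cells, 4.39 times as high. The junction into the exon (58397796-58399156) had a PSI of 0.360 in dTAG cells and 0.517 in Ctrl cells. The junction out of it (58396899-58397753) had 0.521 in dTAG cells and 0.456 in Ctrl cells. The skipping form, the only decay-only one of the cluster, was thus the more used in dTAG cells, while the junctions on the 2 sides of the exon differed in opposite directions. The exon's inclusion, taken as the mean of its junctions over that mean plus the skipping PSI, was 78.7% in dTAG cells and 94.7% in Ctrl cells. The chi-square test of the cluster gave p = 0.00207 with an adjusted p of 0.157, which ranked it 95 among the 7263 tested clusters. It passed the looser threshold of 0.2 and not that of 0.05. Under the stricter Benjamini-Yekutieli and Bonferroni adjustments its adjusted p was 1.0, which ends the call.

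The next Hnrnpk cluster downstream holds the 72-nt exon, and all its junctions are in both protein-coding and decay transcripts. The junction out of the exon (58395687-58396188) had a PSI of 0.465 in dTAG cells and 0.288 in Ctrl cells, a deltaPSI of 0.176 and the largest among the 117 introns. The junction into the exon (58396259-58396827) had 0.378 in dTAG cells and 0.511 in Ctrl cells. The junction that skips it (58395687-58396827) had 0.157 in dTAG cells and 0.201 in Ctrl cells. As at the 44-nt exon, the share of the junction into the exon was lower and that of the junction out of it higher in dTAG cells. Inclusion, measured as above, was 72.8% in dTAG cells and 66.5% in Ctrl cells, so the sizes at this exon and at the 44-nt exon point in opposite directions. The cluster missed the threshold (p = 0.284 by the chi-square test), so its deltaPSI, though larger than that at the 44-nt exon, is a size without a call.

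**Figure D1:**
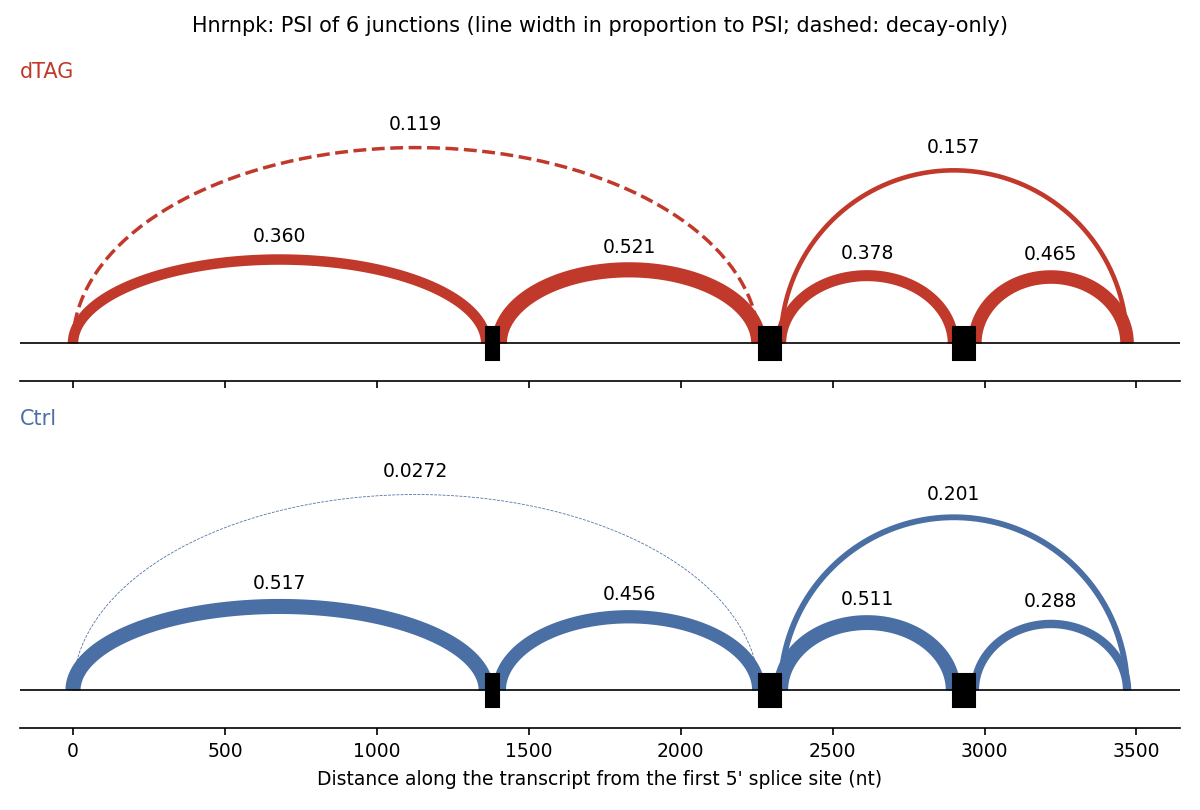
PSI of the 6 junctions of the neighbouring Hnrnpk clusters in dTAG cells (upper panel) and Ctrl cells (lower panel), with distance along the transcript in nt on the x axis; arcs are introns, their width is in proportion to the PSI printed above them, black boxes are the 44-nt exon, the exon between the clusters and the 72-nt exon, and the dashed arc is decay-only. The dashed skipping arc has 0.119 in dTAG cells and 0.0272 in Ctrl cells.

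The other 4 Hnrnpk clusters had p-values of 0.671 to 0.969 in the chi-square test, and their largest absolute deltaPSI was at most 0.0279. Among them, 3' splice sites 60 nt apart near the end of the gene had PSI of 0.525 in dTAG cells and 0.497 in Ctrl cells at the upstream site (58392476-58393196). A junction near the start of the gene (58400417-58402064) had 0.0297 in dTAG cells and 0.0181 in Ctrl cells. Both differences are small beside those at the 44-nt and 72-nt exons. Of the 18 Hnrnpk junctions, 7 have the 60 spliced bases around them (30 on each side) also present unspliced elsewhere in the genome, as in a processed pseudogene. These include the junctions into and out of the 44-nt and 72-nt exons but not those that skip them. Only uniquely mapped reads were counted, and the part of such copies in the PSI was not tested.

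Hnrnpa1 encodes an RNA-binding protein of the A/B family that often represses exons, and its 159-nt exon, in the glycine-rich region, is the one that the longer A1B protein has and A1 lacks. The junction that leaves out this exon (103242718-103243625), held by coding and decay transcripts, had a PSI of 0.0883 in dTAG cells and 0.00989 in Ctrl cells, 8.94 times as high. This ratio rests on a low Ctrl PSI. The cluster's main junction (103243780-103243959), which leaves the next exon, had 0.785 in dTAG cells and 0.857 in Ctrl cells. The junction into the 159-nt exon (103242718-103242922) had 0.0538 in dTAG cells and 0.0541 in Ctrl cells. The deltaPSI largest in size were those of the junction that leaves out the exon (0.078) and of the main junction (-0.072), which do not share a splice site. The junction out of the exon (103243080-103243625) had 0.0407 in dTAG cells and 0.0444 in Ctrl cells. A junction that leaves out the next exon as well (103242718-103243959) had 0.0164 in dTAG cells and 0.0179 in Ctrl cells, and an unannotated one (103243080-103243959) had 0.0154 in dTAG cells and 0.0168 in Ctrl cells.

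The ratio of dTAG to Ctrl PSI was 0.917 at 4 of the 6 introns of this Hnrnpa1 cluster, the main junction among them. The fit thus left their shares relative to each other as they were. The large deltaPSI of the main junction went with its large PSI and not with a ratio of its own. The junction into the 159-nt exon had a ratio of 0.995. Its chi-square test gave p = 0.0262 with an adjusted p of 0.592, which misses both adjusted thresholds. The spliced bases around the exon-skipping junction and around the main junction are each found unspliced at 4 other places in the genome, and those around the junctions into and out of the 159-nt exon at none. The part of these copies in the PSI was not tested.

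The second Hnrnpa1 cluster lies at the end of the gene and holds 2 decay-only junctions, both at a low share. The longer one (103244028-103246346) had a PSI of 0.00664 in dTAG cells and 0.00675 in Ctrl cells. The shorter one (103245966-103246346) had 0.0026 in dTAG cells and 0.00195 in Ctrl cells. Both remove an intron past the normal end of the reading frame. The main junction (103244028-103244256) had 0.987 in dTAG cells and 0.987 in Ctrl cells, and an unannotated one (103245794-103246346) had 0.00427 in dTAG cells and 0.00392 in Ctrl cells. These decay forms were under 1% of the cluster in either group, with p = 0.896 by the chi-square test.

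Hnrnpd, also known as AUF1, binds AU-rich elements of messenger RNA, and Hnrnpdl encodes its close relative. Both genes, on the minus strand of chromosome 5, hold an exon that is included only in decay transcripts and lies past the stop codon that coding transcripts use, at chr5:99962098-99962204 (107 nt) in Hnrnpd and chr5:100035635-100035739 (105 nt) in Hnrnpdl. The splice sites of these exons are shown because the genes share them: at the 3' splice site 20 intron and 3 exon bases, at the 5' splice site 3 exon and 6 intron bases, with the AG and GT of the intron in capitals.
Hnrnpd 3' splice site: accttgtttgtacccgccAGcgg
Hnrnpdl 3' splice site: accttgtttgtacccgccAGcgg
Hnrnpd 5' splice site: ttgGTatgg
Hnrnpdl 5' splice site: gtgGTatgg
All 23 bases of the 3' splice sites are identical, within an unbroken run of 56 identical bases (36 of the intron and 20 of the exon), and 8 of 9 bases are at the 5' splice sites. Over their whole lengths the exons align with 72 identical bases in 108 columns (66.7%). The exon starts 33 nt past the end of the reading frame in Hnrnpd and 24 nt past it in Hnrnpdl. With the exon included, the last junction lies up to 140 nt past the frame's end in Hnrnpd and 129 nt past it in the Hnrnpdl transcript that keeps the usual stop.

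In Hnrnpdl, the decay-only junction into the exon (100035739-100036104) had a PSI of 0.440 in dTAG cells and 0.357 in Ctrl cells. The decay-only junction out of it (100034984-100035635) had 0.114 in dTAG cells and 0.107 in Ctrl cells. The coding junction that skips the exon (100034984-100036104) had 0.446 in dTAG cells and 0.537 in Ctrl cells. Inclusion of the decay exon was 38.3% in dTAG cells and 30.1% in Ctrl cells, with p = 0.124 by the chi-square test and an adjusted p of 0.848.

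In Hnrnpd the sizes ran the other way. The decay-only junction into the exon (99962204-99962515) had a PSI of 0.0961 in dTAG cells and 0.12 in Ctrl cells, and that out of it (99961333-99962098) had 0.0303 in dTAG cells and 0.0371 in Ctrl cells. The coding junction that skips it (99961333-99962515) had 0.874 in dTAG cells and 0.843 in Ctrl cells. Inclusion was 6.75% in dTAG cells and 8.5% in Ctrl cells, with p = 0.611 by the chi-square test. Neither gene's difference passed the test, and the difference between the genes was not tested. In both groups and both genes, the junction into the exon had a higher PSI than that out of it.

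**Figure D2:**
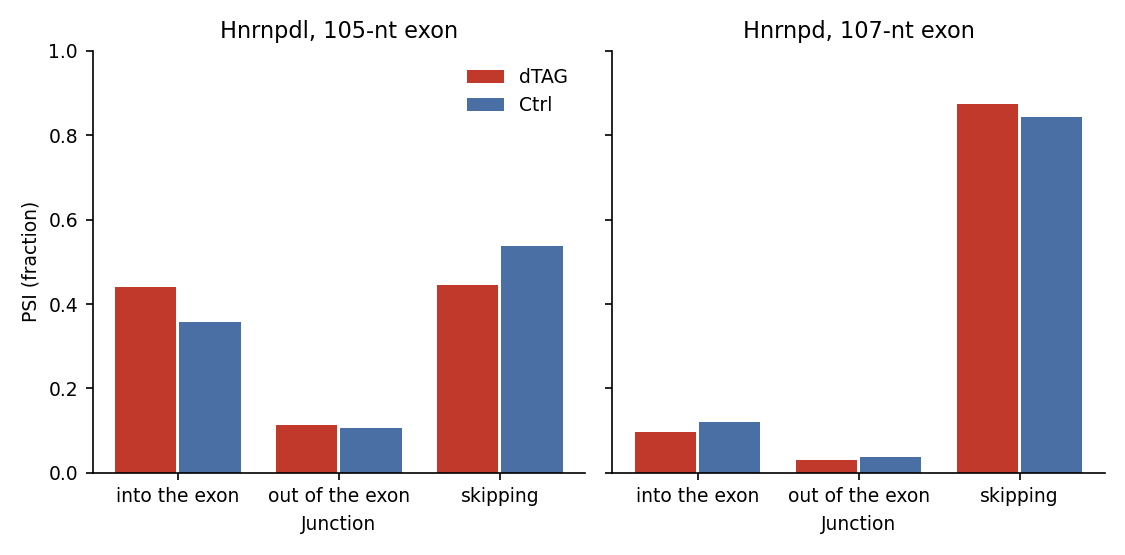
PSI (fraction, y axis) of the junctions into, out of and skipping the decay exon of Hnrnpdl (left) and Hnrnpd (right), with dTAG cells left of Ctrl cells in each pair of bars; each bar is a single fitted value per group, without error. Skipping is 0.446 in dTAG cells and 0.537 in Ctrl cells in Hnrnpdl, and 0.874 in dTAG cells and 0.843 in Ctrl cells in Hnrnpd.

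Another decay-only junction of Hnrnpdl (100037981-100038574) starts from a 5' splice site 146 nt further along than that of the main junction (100037981-100038720), which coding and decay transcripts share. Its PSI was 0.0505 in dTAG cells and 0.0433 in Ctrl cells, and that of the main junction was 0.949 in dTAG cells and 0.957 in Ctrl cells, with p = 0.401 by the chi-square test. Of the remaining Hnrnpdl clusters, that of the 171-nt coding exon had p = 0.645 and that of the 132-nt coding exon p = 1.0 in the chi-square test. At the 132-nt exon all 4 PSI are the same in both groups to within 0.0001, as in 3 of the 35 clusters and in 22 of all 7263. The others of these 3, of Hnrnpk and Hnrnpm, each have 2 introns, of which 1 holds nearly all the share. At the 132-nt exon the main PSI were 0.632 and 0.3585 in both groups. Such equal values come from the fit and do not show that a difference is absent.

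For Hnrnpd the smallest p-value, 0.362 by the chi-square test with an adjusted p of 0.98, belonged to the cluster of a 147-nt coding exon (99963731-99963877). The junction into it (99963877-99963984) had a PSI of 0.426 in dTAG cells and 0.414 in Ctrl cells, the junction out of it (99962612-99963731) 0.375 in dTAG cells and 0.37 in Ctrl cells, and the skipping junction (99962612-99963984) 0.199 in dTAG cells and 0.216 in Ctrl cells. The AUF1 proteins differ by this exon and by a 57-nt exon. Inclusion of the 147-nt exon was 66.9% in dTAG cells and 64.5% in Ctrl cells, and that of the 57-nt exon (99976534-99976590) was 68.1% in dTAG cells and 69.8% in Ctrl cells. The Hnrnpd clusters other than this one had p-values of 0.367 to 0.895 in the chi-square test.

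Hnrnpu encodes SAF-A, a nuclear matrix protein that also holds Xist RNA on the inactive X chromosome. In its tested cluster a decay-only junction (178325313-178329868) had a PSI of 0.0218 in dTAG cells and 0.0124 in Ctrl cells, 1.76 times as high. It uses a 3' splice site 4094 nt beyond that of the coding junction (178329407-178329868), which had 0.978 in dTAG cells and 0.988 in Ctrl cells. In the decay transcripts the reading frame ends 30 nt past the junction. The decay form was a small share in both groups, and the chi-square test gave p = 0.112 with an adjusted p of 0.848.

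Over the 5 genes, 6 of the 9 decay-only junctions had a higher PSI in dTAG cells and 3 a lower one, beside 55.0% higher among the 989 decay-only junctions of all tested clusters. Their deltaPSI had a median of 0.00722, against 0.00167 over all 989. The 3 lower ones were both junctions of the Hnrnpd exon and the longer of Hnrnpa1. Junctions of the same exon share their transcripts and are not independent of each other, and 4 of the 9 belong to the decay exons of Hnrnpd and Hnrnpdl. Besides the junction of Hnrnpk, none lay in a cluster that reached a p-value of 0.05 in the chi-square test. Counting every junction of a decay transcript, also those shared with coding transcripts, 19 of 43 (44.2%) had a higher PSI in dTAG cells and 24 a lower one, beside 50.4% higher among the 3370 of all tested clusters. Most were thus lower under this definition, where most decay-only junctions were higher.

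**Figure D3:**
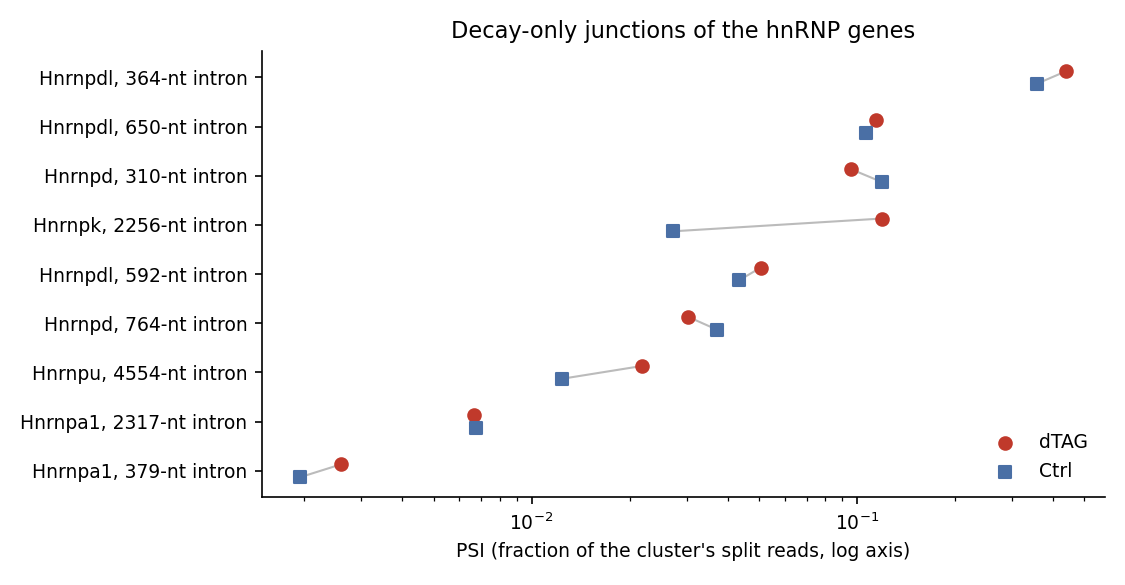
PSI of the 9 decay-only junctions on a log axis, with dTAG cells as circles above Ctrl cells as squares in each row; rows are named by gene and intron length in nt and ordered by mean PSI, and each point is a single fitted value per group. The widest gap is that of Hnrnpk, at 0.119 in dTAG cells and 0.0272 in Ctrl cells.

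Hnrnpc encodes a protein that binds runs of U as a tetramer. Its smallest p-value fell on 3 alternative 3' splice sites within 24 nt of coding sequence, on the minus strand of chromosome 14 (52075407-52075456), shown with the AG of each in capitals.
Hnrnpc 3' splice sites: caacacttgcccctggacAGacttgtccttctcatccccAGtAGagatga
The sites are 21 and 3 nt apart, so all keep the reading frame. The site that comes first in the transcript (52075436-52075613) had a PSI of 0.583 in dTAG cells and 0.552 in Ctrl cells. The next (52075415-52075613) had 0.305 in dTAG cells and 0.326 in Ctrl cells, and the last (52075412-52075613) 0.113 in dTAG cells and 0.123 in Ctrl cells. The longer form thus had slightly more share in dTAG cells and both shorter forms slightly less (p = 0.0427 by the chi-square test, adjusted p = 0.694). All 3 deltaPSI were within 0.05.

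The C1 and C2 proteins of Hnrnpc differ by a coding segment of 39 nt between alternative 5' splice sites, which lies in chr14:52081783-52081836 and is in capitals here.
Hnrnpc segment: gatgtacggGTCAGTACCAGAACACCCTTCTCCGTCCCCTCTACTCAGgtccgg
The site that includes the segment (52081307-52081789) had a PSI of 0.435 in dTAG cells and 0.416 in Ctrl cells, and the site that leaves it out (52081307-52081828) 0.565 in dTAG cells and 0.584 in Ctrl cells. The chi-square test gave p = 0.0863 with an adjusted p of 0.813. The third Hnrnpc cluster, of 7 introns ahead of the coding region, had p = 0.523 in the chi-square test, and its largest deltaPSI was 0.0254. The spliced bases of the first 3' splice site form and of the form without the 39-nt segment are each found unspliced at 1 other place in the genome.

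Hnrnpm, Hnrnph1, Hnrnpa2b1 and Hnrnpr had neither a p-value of at most 0.05 nor a decay-only junction. Hnrnpm encodes a splicing regulator of GU-rich sites. Its smallest p-value, 0.0646 by the chi-square test with an adjusted p of 0.767, was for a 53-nt coding exon (chr17:33670081-33670133). The junction into it (33670133-33677274) had a PSI of 0.542 in dTAG cells and 0.521 in Ctrl cells, the junction out of it (33669176-33670081) 0.447 in dTAG cells and 0.471 in Ctrl cells, and the skipping junction (33669176-33677274) 0.0113 in dTAG cells and 0.00851 in Ctrl cells. The exon was nearly always included, at 97.8% in dTAG cells and 98.3% in Ctrl cells. The other 3 Hnrnpm clusters had p-values of 0.573 to 0.964 in the chi-square test.

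Hnrnph1 encodes a protein that binds runs of G. Its smallest p-value, 0.226 by the chi-square test with an adjusted p of 0.933, was for a 50-nt exon (chr11:50385141-50385190). The skipping junction (50384736-50385777) had a PSI of 0.0646 in dTAG cells and 0.0518 in Ctrl cells, the junction into the exon (50384736-50385141) 0.365 in dTAG cells and 0.367 in Ctrl cells, and the junction out of it (50385190-50385777) 0.57 in dTAG cells and 0.581 in Ctrl cells. Another Hnrnph1 exon of 139 nt (50381459-50381597) is left out only in a noncoding transcript, with a skipping PSI of 0.0428 in dTAG cells and 0.033 in Ctrl cells. At both exons skipping was a small share in either group. The 4 clusters beside that of the 50-nt exon had p-values of 0.357 to 0.819 in the chi-square test.

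Hnrnpa2b1 encodes an A/B family protein that has been described as a reader of m6A. Its smallest p-value, 0.352 by the chi-square test with an adjusted p of 0.978, was for a 120-nt coding exon (chr6:51464428-51464547). The junction into it (51464547-51465179) had a PSI of 0.235 in dTAG cells and 0.226 in Ctrl cells, the junction out of it (51464211-51464428) 0.448 in dTAG cells and 0.458 in Ctrl cells, and the skipping junction (51464211-51465179) 0.312 in dTAG cells and 0.314 in Ctrl cells. An unannotated junction (51464242-51465179) had 0.00521 in dTAG cells and 0.00243 in Ctrl cells. The 36-nt exon that distinguishes the B1 from the A2 protein (51467391-51467426) was included at 11.8% in dTAG cells and 11.4% in Ctrl cells. No intron of the 3 Hnrnpa2b1 clusters had a deltaPSI above 0.01 in size, and the p-values of the other 2 were 0.708 and 0.767 in the chi-square test.

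Hnrnpr encodes a protein related to SYNCRIP. Its smallest p-value, 0.414 by the chi-square test with an adjusted p of 0.981, was for a cluster of 7 introns near the start of the gene on chromosome 4. The junction that leaves the exon at its centre (136314255-136316361) had a PSI of 0.515 in dTAG cells and 0.483 in Ctrl cells. The junctions from the upstream 5' splice site into this exon had 0.12 in dTAG cells and 0.142 in Ctrl cells at one 3' splice site (136311089-136314090), and 0.13 in dTAG cells and 0.131 in Ctrl cells at the site 3 nt before it (136311089-136314087). The junction that skips the exon (136311089-136316361) had 0.162 in dTAG cells and 0.164 in Ctrl cells. These differences are smaller than those at the Hnrnpk exons. From the second upstream site, the junctions to the same 3' splice sites had 0.0355 in dTAG cells and 0.0295 in Ctrl cells (136311747-136314090) and 0.0179 in dTAG cells and 0.0197 in Ctrl cells (136311747-136314087), and the skipping one (136311747-136316361) 0.0195 in dTAG cells and 0.0312 in Ctrl cells. The other 2 Hnrnpr clusters had p-values of 0.796 and 0.884 in the chi-square test.

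**Figure D4:**
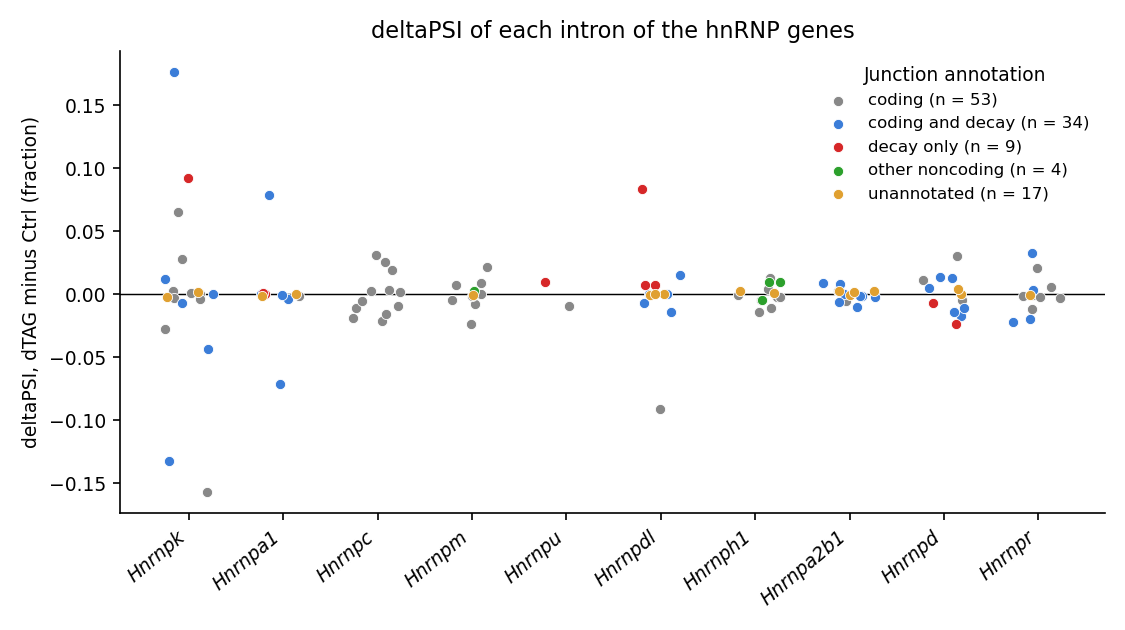
deltaPSI (dTAG minus Ctrl, fraction, y axis) of each of the 117 introns by gene, with genes ordered by their smallest p-value and points coloured by junction annotation; horizontal scatter within a gene has no meaning. Hnrnpk, Hnrnpa1 and Hnrnpdl are the genes with points beyond 0.05 in size.

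Of the 35 tested clusters of these hnRNP genes, 0 had an adjusted p under 0.05 in LeafCutter's chi-square test, beside 0.702% of all tested clusters. With an adjusted p under 0.2 there was 1, that of the Hnrnpk 44-nt exon, or 2.86%, beside 1.58% of all. A p-value of at most 0.05 was seen for 3 (8.57%), of Hnrnpk, Hnrnpa1 and Hnrnpc, beside 6.84% of all, so the share among the hnRNP clusters was near that of the background. A largest absolute deltaPSI of at least 0.05 was seen in 4 (11.4%), beside 19.8% of all. These 4 were the Hnrnpk clusters of the 44-nt and 72-nt exons, the Hnrnpa1 cluster of the 159-nt exon and the Hnrnpdl cluster of the decay exon. The median of the largest absolute deltaPSI was 0.0116 over the hnRNP clusters and 0.0215 over all tested clusters.

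**Figure D5:**
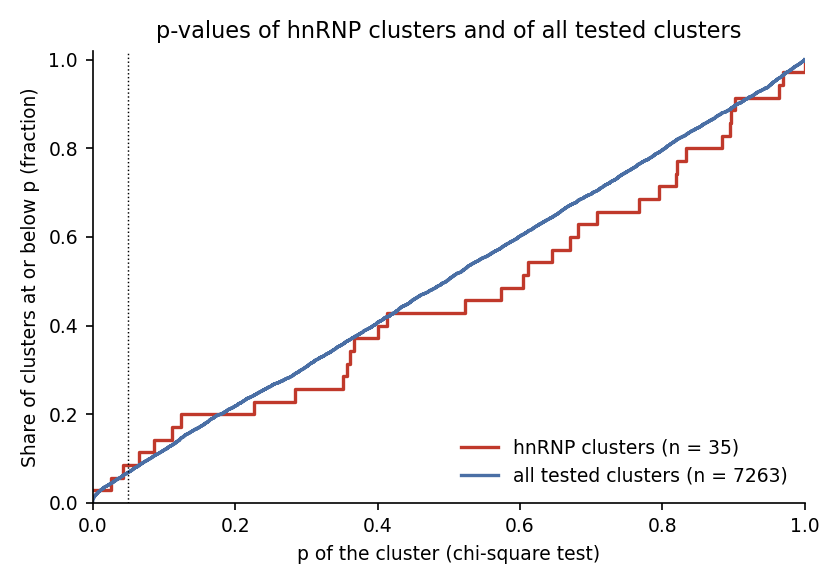
Cumulative share of clusters (y axis) at or below each p-value of the chi-square test (x axis), for the 35 hnRNP clusters and for all 7263 tested clusters, with a dotted line at 0.05. At the dotted line the hnRNP clusters stand at 8.57% and all tested clusters at 6.84%.

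Of 33 related RNA-binding proteins outside these genes, 29 had a tested cluster, with 68 clusters in all. This list was chosen with earlier results of these data known. A chi-square p-value of at most 0.05 was seen for 6 of the 68 (8.82%), beside 6.84% of all tested clusters. An adjusted p under 0.05 was seen for 2, beside 0.702% of all tested clusters. These were the clusters of Hnrnpl and Hnrnpll, where the intron that skips a cassette exon had a deltaPSI of -0.242 and -0.257. In Rbmxl1, a relative of the X-linked hnRNP G, the largest difference was 0.321 in dTAG cells and 0.229 in Ctrl cells (p = 0.00721 by the chi-square test, adjusted p = 0.319). In Sfpq, a paraspeckle protein, it was 0.712 in dTAG cells and 0.777 in Ctrl cells (chi-square p = 0.0277). In Tardbp, which encodes TDP-43, it was 0.0101 in dTAG cells and 0.0194 in Ctrl cells (chi-square p = 0.05). Besides Hnrnpl and Hnrnpll, no relative had an adjusted p under 0.2.

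The letters GGACT, the core of many m6A sites, were searched on the transcript strand within 250 nt on either side of each 5' splice site in the GRCm38 sequence. They were present around 20 of the 78 5' splice sites of these hnRNP genes (25.6%), beside 37.7% of the 13986 of all tested introns. By gene, they were present around 5 of 14 sites in Hnrnpk, 5 of 6 in Hnrnpa1, 2 of 8 in Hnrnpdl and 0 of 8 in Hnrnpa2b1. The counts were 1 of 8 in Hnrnpc, 1 of 9 in Hnrnpd and 2 of 10 in Hnrnph1. They were 2 of 7 in Hnrnpm, 1 of 7 in Hnrnpr and 1 of 1 in Hnrnpu. Neighbouring sites share sequence, and a match is not a modified base.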

How the data were processed

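4sU-seq was done on 6 dTAG and 6 Ctrl samples. The authors aligned reads to mm10 with STAR 2.5.2b, kept uniquely mapped reads, built clusters from split reads with LeafCutter and compared both groups with the clones pooled. The authors deposited each intron's PSI per group as a fraction, and each cluster's log-likelihood ratio score and p-value. Their effect size, deltapsi and adjusted p columns were not used.

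Here, deltaPSI was computed from the deposited PSI fractions. The p-values that the authors deposited were recomputed from the score and its degrees of freedom (they differed by at most 7.63e-15) and adjusted by Benjamini-Hochberg over 7263 clusters. Every one of the 10 genes is described, with its cluster of the smallest p-value in full. So are clusters with p of at most 0.05, a deltaPSI of at least 0.05 or a decay-only junction, and relatives with p of at most 0.05, not all of which are reported here. Genes, lists and rules were chosen with earlier results of these data known. Annotation was GENCODE vM21 and sequence GRCm38. No sample-level depth is given, so leave-one-out, clone and precision values could not be had. Replicates may be technical, as the labels do not say otherwise. Steps were tested on simulated data. Python 3.11.15, scipy 1.17.1, pandas 2.3.3, pysam 0.24.0 and biopython 1.88 were used.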

Additional observations from a re-analysis of the deposited data

How the results depend on the processing

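The count of hnRNP clusters with a p-value of at most 0.05 was 3 without clusters of several symbols and with a filter on low PSI, and 2 when a deltaPSI of 0.05 was also asked for. With an adjusted p under 0.2 it was 1 under both filters, and 0 under Benjamini-Yekutieli and 0 under Bonferroni, where the adjusted p of the Hnrnpk cluster became 1.0, since both adjust more strictly. A deltaPSI of 0.1 in place of 0.05 gave 2 clusters and one of 0.02 gave 11, against 4. Of the decay-only junctions, 6 of 9 (66.7%) were higher in dTAG cells, beside 55.0% over all tested clusters. With a mean PSI of at least 0.02 it was 4 of 6 (66.7%, beside 54.6%), and for junctions of no protein-coding transcript 18 of 30 (60%, beside 52.2%). For junctions of any decay transcript it was 19 of 43 (44.2%, beside 50.4%), so the majority turned to lower. Most of these 43 are shared with coding transcripts, and their count does not give a direction of the decay forms. No paired analysis was possible because the tables give a single value per group. For the same reason no replicate could be left out, and how far depth limits a cluster is unknown.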
